A study of Rattus norvegicus with 13 samples.

Results

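All kidneys from rats given 13 Gy, whether or not the animals also drank lisinopril, were pooled (n = 9) and compared with the kidneys of unirradiated rats (n = 4), to find which microRNAs (miRNAs) irradiation changed whatever the drug. The 9 libraries are those labelled 13 Gy, out of 13 libraries in all, and the pool was defined by the labels, not by any measured value. All rats were females of the inbred strain WAG/RijCmcr, labelled Wistar, aged 11 to 12 weeks and weighing about 155 g. Control rats (0 Gy, n = 4) were age-matched and received neither radiation nor drug. Irradiated rats without drug (13 Gy, n = 4) were exposed while awake to a total of 13 Gy of X-rays (320 kVp, 1.75 Gy per min) over the whole body, except for a hind limb that was shielded outside the chamber (leg-out partial body irradiation), a procedure that spares marrow in that limb. Rats of the drug group (13 Gy + lisinopril, n = 5) received the same exposure and, from day 7 to the end, about 24 mg per m2 per day of the angiotensin converting enzyme inhibitor lisinopril in their water. No unirradiated rats received lisinopril, so in this group effects of radiation and drug against control cannot be told apart. Supportive care was saline at 40 ml per kg per day on days 3 to 7 and enrofloxacin at 10 mg per kg per day up to day 14, and the labels do not say whether the controls received it. Kidneys were taken on day 35, so that each value describes a single late time point. Total RNA came from the organ as a whole, so fewer cells of a type and less RNA per cell cannot be told apart.

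A miRNA is a short RNA that guides the Argonaute protein to messenger RNAs, mostly through its seed, and thereby lowers their translation and stability. Ionizing radiation breaks DNA and activates the transcription factor p53, which directly induces the miR-34 genes. The kidney is a late-responding tissue in which radiation damage of tubules, glomeruli and vessels develops slowly, and angiotensin converting enzyme inhibitors are known to mitigate that injury in rats.

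The mature sequences of the miRNAs that carry the results are shown first, because relatedness and shared loci decide which values are independent. Sequences are from RefSeq (assembly GRCr8), which held 414 of the 460 rat miRNA names, and are written 5′ to 3′ with the seed, bases 2 to 8, in capitals. The first set holds the miR-34 family members with an identical seed, among which miR-34a and miR-34c were higher after irradiation.
miR-34a-5p: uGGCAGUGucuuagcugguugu
miR-34b-5p: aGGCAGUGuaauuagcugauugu
miR-34c-5p: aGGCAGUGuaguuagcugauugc
miR-449a-5p: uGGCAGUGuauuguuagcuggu

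The second set holds the 3 miRNAs of the miR-183 cluster, which were lower together and whose seeds are similar but not the same. It also holds miR-3553, which is read from the opposite strand of the miR-183 hairpin.
miR-183-5p: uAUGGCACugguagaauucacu
miR-96-5p: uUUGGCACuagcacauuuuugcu
miR-182: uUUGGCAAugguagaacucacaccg
miR-3553: cAGUGAAUucuaccagugccaua

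The third set holds the hypoxia-linked miR-210-3p and miR-3574, of which each is the exact reverse complement of the other.
miR-210-3p: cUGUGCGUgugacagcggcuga
miR-3574: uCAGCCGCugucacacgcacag

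The fourth set holds miRNAs of the imprinted Dlk1-Dio3 region that moved in opposite directions, with miR-127-3p and miR-1247-5p higher and the others lower, and no seed in common.
miR-127-3p: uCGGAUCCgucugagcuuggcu
miR-1247-5p: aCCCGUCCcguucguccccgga
miR-379-5p: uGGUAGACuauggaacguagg
miR-411-5p: uAGUAGACcguauagcguacg
miR-134-5p: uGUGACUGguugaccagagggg
miR-541-5p: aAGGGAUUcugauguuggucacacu
miR-409b: aGGGGUUCaccgagcaacauucg

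The last sequence is that of miR-146a-5p, an abundant immune-regulatory miRNA that was lower.
miR-146a-5p: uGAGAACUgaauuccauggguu

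Rat miRNA counts per library ranged from 1194175 to 11095939. The shallowest was control library 2, with 37 rat miRNAs at 0. In it, entries carrying the names of other species made up 29% of mature counts, compared with 10.3% to 14.6% in the other 12. Levels are given in CPM, read counts brought to a common library size with TMM factors, and 3 counts corresponded to 3.19 CPM in control library 2 and to 0.289 to 0.561 CPM elsewhere. Replicates correlated at r = 0.972 or more across miRNAs on the log2 CPM scale. The kidney label was borne out by the 7 epithelial markers, led by miR-10a-5p, which were all detected in every library and summed to 430000 to 741000 CPM in controls and 349000 to 576000 CPM after irradiation.

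After irradiation 6 miRNAs were higher and 18 lower, out of 419 tested. That is 5.73% of those tested, 1.43% higher and 4.3% lower, by edgeR's quasi-likelihood test at a Benjamini-Hochberg adjusted p under 0.05, and the word called is used for these. The 6 higher miRNAs were miR-34a-5p, miR-34c-5p, miR-127-3p, miR-1247-5p, miR-210-3p and miR-3574. The lower ones were mostly miRNAs of the Dlk1-Dio3 region (10 of 18) and of the miR-183 cluster (miR-183-5p, miR-96-5p, miR-182 and the antisense miR-3553). There were 2 pairs of called entries, miR-210-3p with miR-3574 and miR-183-5p with miR-3553, that match opposite strands of a single locus. The counts here keep both entries of a pair, and with each pair counted once there were 22 called loci, 5 higher and 17 lower. Over all 419 the median log2 fold change was 0.05 and 43.7% were negative. Before adjustment 94 miRNAs had a p under 0.05. The changes were mostly small, and 8 of the 24 exceeded a log2 fold change of 1 in size. In 15 of the 24 all 9 irradiated kidneys lay on the same side of all 4 controls, 5 higher and 10 lower. Over all 419 miRNAs that held for 8 in the higher direction (1.91%) and 13 in the lower direction (3.1%). A two-sided exact permutation test over every arrangement of 4 among 13 libraries was run on the called miRNAs alone, without adjustment. For those same 15 it gave its smallest possible p of 0.0028, which the lack of overlap fixes in advance. For the rest of the called miRNAs it gave at most 0.028. As these miRNAs were picked from the same data, the test is not independent support. The number of higher calls rested on single libraries, with 1 left without control library 2 and 11 found without irradiated library 2. Lower calls numbered 13 to 23 as each library was left out.

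**Figure D1:**
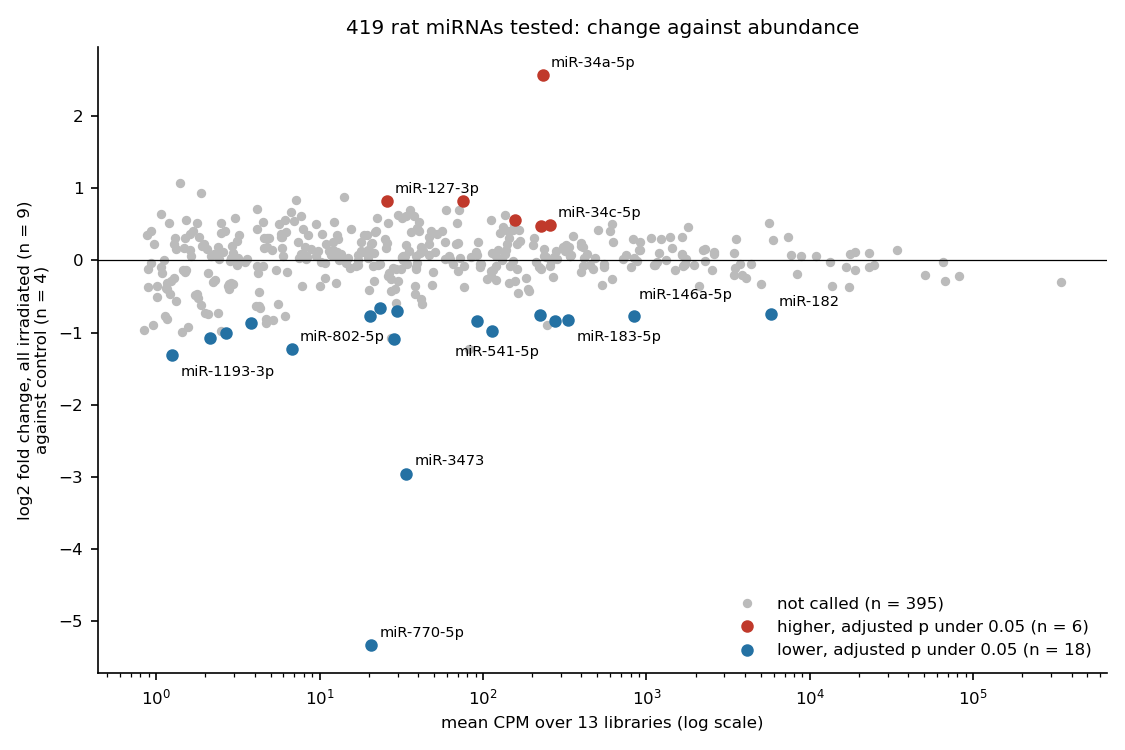
Log2 fold change of all irradiated kidneys (n = 9) against control (n = 4), from edgeR, plotted against mean CPM over 13 libraries on a log axis. Each point is a miRNA, grey if not called (n = 395), red if higher (n = 6) and blue if lower (n = 18). miR-34a-5p stands alone at 2.56, and most lower calls lie between -0.66 and -1.32, with miR-3473 and miR-770-5p below.

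The largest rise was that of miR-34a-5p, the miR-34 gene product most widely induced by p53. Its level in the controls was 51.6, 50.0, 53.7 and 54.4 CPM. In the 9 irradiated kidneys the lowest value was 236, the median 318 and the highest 356 CPM. Every irradiated kidney was thus more than 4 times as high as any control. The rise was 5.91-fold (log2 fold change 2.56, SE 0.138, adjusted p = 1.14e-09). It was the same size in both irradiated groups, with log2 fold changes of 2.54 without drug and 2.58 with lisinopril. Their difference was 0.04 (95% interval -0.24 to 0.32).

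miR-34c-5p comes from a different gene, shared with miR-34b, and carries the same seed. It was at 218, 178, 189 and 211 CPM in the controls, and at 240, 279 and 323 CPM (lowest, median, highest) after irradiation. The groups did not overlap, but the rise was only 1.41-fold (log2 fold change 0.49, SE 0.116, adjusted p = 0.0167). Its adjusted p was 0.0745 without control library 2 and 0.0548 without control library 3. Control kidneys therefore held more miR-34c-5p than miR-34a-5p on the CPM scale, and irradiated kidneys held similar amounts, 281 ± 31.9 and 311 ± 40.6 CPM (SD, n = 9). A comparison of levels between 2 miRNAs is limited by differences in ligation and capture between sequences. The rise in miR-34c-5p was 0.58 without drug (adjusted p = 0.0216) and 0.42 with lisinopril (adjusted p = 0.0517), with a difference of -0.16 (95% interval -0.41 to 0.09).

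The other 4 tested family members missed the threshold, all with positive log2 fold changes. For miR-34b-3p means of 5.16 CPM in control and 7.77 CPM in irradiated kidneys gave 0.54 (adjusted p = 0.0592). For miR-34c-3p they were 2.57 and 4.82 CPM (0.72, adjusted p = 0.0727). In both, the irradiated kidneys all lay above all controls, and miR-34b-3p passed in 3 of 22 alternatives. The values of miR-34b-5p (0.50, adjusted p = 0.367) and miR-449a-5p (0.32, adjusted p = 0.602) overlapped between groups, and miR-34b-5p was at 0 counts in the shallow control library 2. The 6 members had a median log2 fold change of 0.52, against 0.05 for all tested. The arms of miR-34b and miR-34c come from a shared gene, so the 6 are not independent. Of 16 other miRNAs linked to p53, none was called by edgeR or DESeq2 and 1 had an unadjusted p under 0.05 (94 among all 419). Of these 9 were positive and 7 negative, with a median of 0.02 (-0.06 to 0.14 over the 23 alternatives, which also called none). Among them were miR-107-3p (0.25, adjusted p = 0.18) and the kidney-enriched miR-194-5p (-0.24, adjusted p = 0.252).

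**Figure D2:**
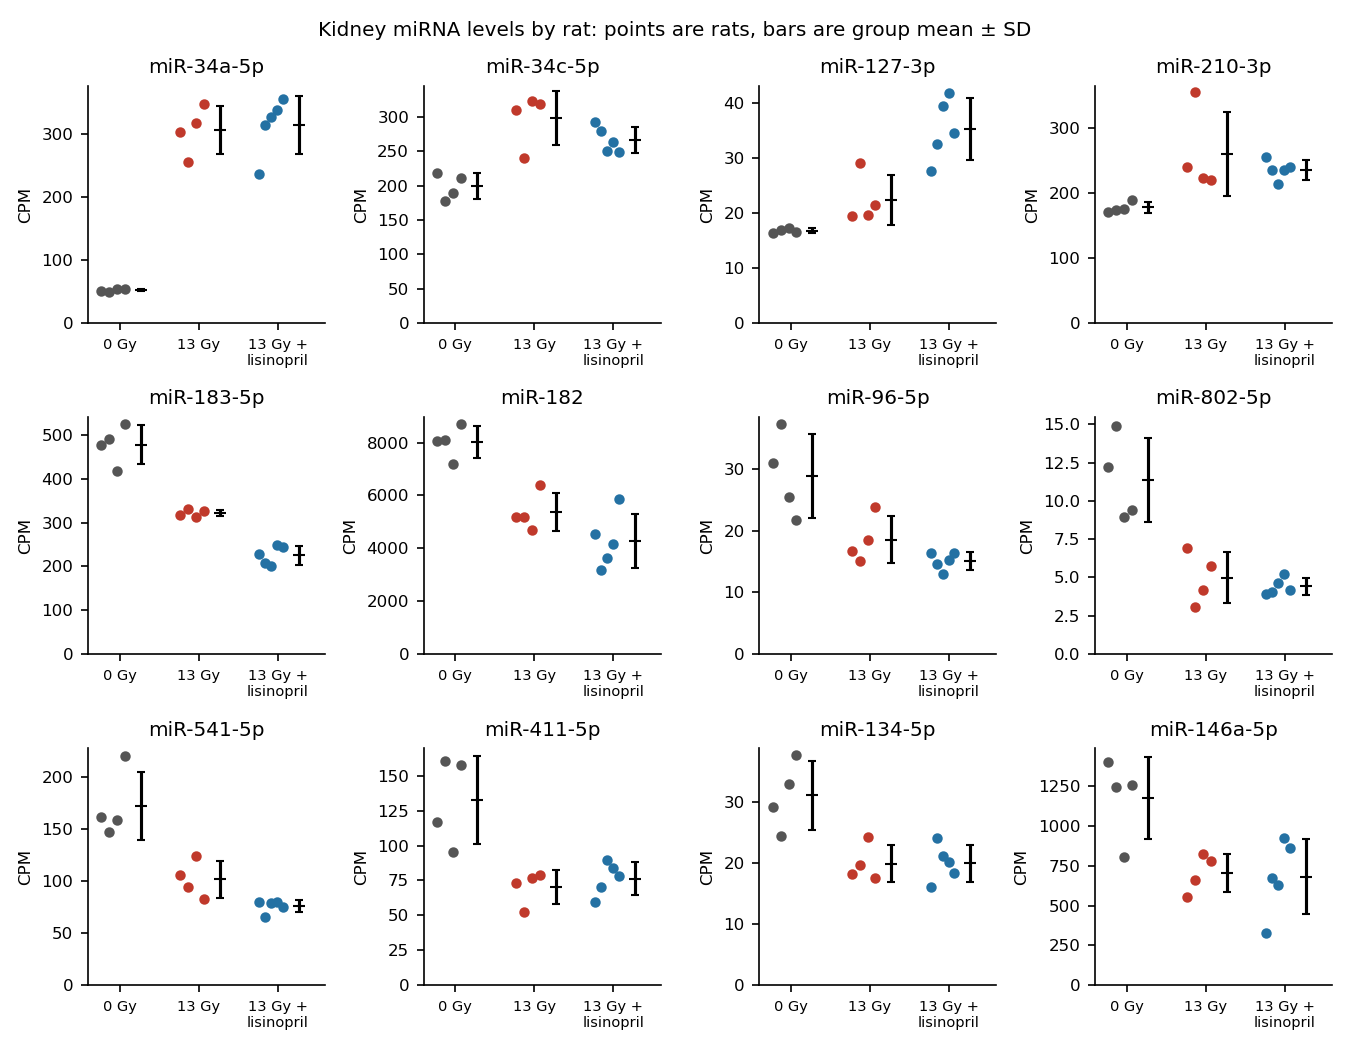
CPM of 12 miRNAs in each rat (points) with the group mean ± SD (bars) for 0 Gy (n = 4), 13 Gy (n = 4) and 13 Gy + lisinopril (n = 5), on linear axes from 0. miR-34a-5p is at most 54.4 CPM in controls and at least 236 CPM after irradiation, while miR-96-5p and miR-146a-5p overlap between controls and irradiated kidneys.

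miR-210-3p, which hypoxia-inducible factor induces, rose 1.39-fold. Control values were 170, 174, 176 and 190 CPM, and irradiated values ran from 213 through a median of 235 to 355 CPM. No value overlapped, and the highest belonged to irradiated library 2, with the other 8 at 255 CPM or less. On the log2 scale the change was 0.47 (SE 0.132, adjusted p = 0.0449). Its antisense partner miR-3574 rose 1.48-fold, from 117 ± 12.8 CPM (SD, n = 4) to 173 ± 31.5 CPM (SD, n = 9), with an adjusted p of 0.0276. miR-3574 held 0.593 to 0.731 times the counts of miR-210-3p in each library. Because the 2 sequences are reverse complements and how strand was handled is not stated, they cannot be told apart and are uncertain. Their calls were also near the threshold: without control library 1 or 2 the adjusted p of miR-3574 was 0.109 or 0.0745, and that of miR-210-3p stayed under 0.05 in 8 of 23 alternatives. Leaving out any control gave miR-210-3p an adjusted p from 0.0592 to 0.119, as did irradiated library 1 (0.0602) and lisinopril libraries 1, 2, 4 and 5 (0.0621 to 0.0722). The other 5 of the 6 hypoxia and injury miRNAs were not called, and miR-155-5p was at -0.59 (adjusted p = 0.0613). Over all 419 tested, 24 were called (5.73%). An unadjusted p under 0.05 was found for 4 of the 6 and for 94 of all 419. DESeq2 called 1 of the 6 higher and 1 lower, and 9 of the 23 alternatives called at least 1.

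The miR-183 cluster encodes miR-183, miR-96 and miR-182 on a single transcript and is best known from sensory epithelia. All 3 guide strands fell to a similar extent. miR-182, by far the most abundant, was at 8050, 8100, 7200 and 8690 CPM in the controls, and at 3190, 4710 and 6400 CPM (lowest, median, highest) after irradiation. It fell by 0.75 on the log2 scale (SE 0.15, adjusted p = 0.00704), and the groups did not overlap. miR-183-5p was at 478, 491, 418 and 525 CPM in the controls and between 200 and 331 CPM in irradiated kidneys (median 248). It fell by 0.83 (SE 0.146, adjusted p = 0.00341), again without overlap.

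miR-96-5p was much scarcer, at 31.0, 37.2, 25.5 and 21.7 CPM in the controls and 12.9 to 23.9 CPM (median 16.4) after irradiation. It fell by 0.77 (SE 0.171, adjusted p = 0.012), and 1 irradiated kidney lay within the range of the controls. Its adjusted p was 0.0528 without control library 1 and 0.0525 without control library 2. The passenger strand miR-183-3p had a log2 fold change of -0.82 and was not called (adjusted p = 0.136). miR-3553, which matches the opposite strand of miR-183-5p, fell by 0.84 (adjusted p = 0.0037) and held 0.797 to 0.845 times its counts in every library, so this pair too cannot be told apart.

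Within the pool, miR-183-5p was lower in kidneys of lisinopril-treated rats (200 to 248 CPM) than in those without drug (313 to 331 CPM), with no overlap. That difference was -0.51 on the log2 scale (95% interval -0.74 to -0.29) and its adjusted p was 0.0504, just outside the threshold. Against control each group passed by itself, with log2 fold changes of -0.57 without drug (adjusted p = 0.0216) and -1.08 with it (adjusted p = 8.64e-06). The pooled -0.83 is therefore a mean of unequal group values.

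The Dlk1-Dio3 region is an imprinted domain in which a large cluster of miRNAs and the non-coding RNAs Meg3 and Rian are made from the maternal chromosome. In the RefSeq gene order 37 tested entries lay between miR-770 and miR-1247, and 12 of them were called, 2 higher and 10 lower. In the stretch from miR-379 to miR-410, all 30 entries had a negative log2 fold change, between -0.31 and -1.32, with a median of -0.74. Of these 30, 9 were called lower. In the 6 entries before miR-379, 4 were positive and 2 negative, with a median of 0.32. Among the 4, miR-434-3p and miR-3543 match opposite strands of a single locus, with count ratios of 0.942 to 1.09, and only miR-127-3p was called. miR-1247-5p, after the cluster and on the opposite strand, was higher.

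The stretch from miR-379 to miR-410 stayed wholly negative in all 23 alternatives, but the number called did not hold. Without control library 4 there were 3 called of 29, and under library totals without TMM there was 1. Without the 2 entries of the opposite strand, miR-409b and miR-3578, 28 remained with 8 called. A fit with only the more abundant entry of each overlapping pair also left 28, with 9 called. Reads of neighbouring miRNAs in a cluster share a transcript, so the 30 entries are not independent. Of the fixed list of Dlk1-Dio3 miRNAs, 34 of 44 were tested, 1 was higher and 10 lower, with a median of -0.73. The region was already known to be lower in these data when this comparison was chosen.

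miR-541-5p was the most abundant called member and fell 0.506-fold. It was at 161, 147, 159 and 220 CPM in the controls and at 65.5, 80.0 and 124 CPM (lowest, median, highest) after irradiation, without overlap (log2 fold change -0.98, SE 0.158, adjusted p = 0.00183). miR-411-5p, close to the start of the cluster, was at 117, 161, 95.6 and 157 CPM in the controls and between 52.4 and 89.9 CPM (median 76.9) in irradiated kidneys. It fell by 0.84 (SE 0.159, adjusted p = 0.00503), also without overlap, and passed in all 23 alternatives. Its size was similar without drug (-0.91, adjusted p = 0.0216) and with lisinopril (-0.79, adjusted p = 0.0172), with a difference of 0.12 (95% interval -0.27 to 0.51).

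miR-409b fell from 44.7 ± 11.4 CPM (SD, n = 4) to 21.3 ± 6.31 CPM (SD, n = 9), a log2 change of -1.08 (adjusted p = 0.00635). It lies opposite miR-409a-3p, which had fewer counts and was not called (-0.87, adjusted p = 0.118). The 2 share a reverse-complement run, and as the handling of strand is not stated, which of them the reads came from is uncertain. miR-134-5p, known from neurons, was at 29.2, 24.5, 32.9 and 37.7 CPM in the controls and 16 to 24.3 CPM (median 19.6) after irradiation. Its lowest control and highest irradiated values nearly met, and it fell by 0.66 (adjusted p = 0.012). miR-300-3p overlapped and fell by 0.71 (adjusted p = 0.0126). Both calls were lost without control library 4, at adjusted p of 0.0516 and 0.0742.

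The remaining called members of the cluster, miR-379-5p, miR-380-3p, miR-1193-3p and miR-376b-5p, had means of only 1.25 to 3.80 CPM. At that level control library 2 held 2 to 10 counts of each, so that its values rest on few reads. For miR-379-5p that library was the highest, at 10.6 CPM, while the other controls lay between 3.86 and 4.95 CPM. The adjusted p of the 4 lay between 0.012 and 0.0337, and without control library 4 between 0.0584 and 0.113. miR-380-3p was also lost without control library 3 (0.101), and miR-376b-5p without control library 1 (0.109) or 2 (0.0745) or lisinopril library 4 (0.0618).

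miR-127-3p, which is transcribed antisense to the imprinted gene Rtl1, went the other way. It was at 16.4, 17, 17.4 and 16.5 CPM in the controls, and all irradiated kidneys were higher, from 19.4 through a median of 29.2 to 41.9 CPM. It rose by 0.82 on the log2 scale (SE 0.218, adjusted p = 0.0337). The lisinopril-treated rats were at 27.6 to 41.9 CPM and passed against control by themselves (log2 fold change 1.07, adjusted p = 0.00107). Without drug it was 19.4 to 29.2 CPM (0.42, adjusted p = 0.166). The difference between the irradiated groups did not pass, at 0.65 (95% interval 0.30 to 1.00, adjusted p = 0.0931). The pooled call was lost in 9 alternatives, among them each single control left out, with adjusted p from 0.0592 to 0.109, and lisinopril library 2, 3, 4 or 5 (0.0512 to 0.0591). Other miRNAs of the same stretch were not called, miR-434-3p at 0.32 (adjusted p = 0.48) and miR-341 at 1.08 (adjusted p = 0.0952).

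miR-1247-5p was at 32.4, 48.9, 62.2 and 52.5 CPM in the controls and at 60.1, 77.1 and 151 CPM (lowest, median, highest) after irradiation. A single pair of values overlapped, and the rise was 0.82 on the log2 scale (SE 0.232, adjusted p = 0.0479). Irradiated library 2 held the highest value. The call was kept in 10 of 23 alternatives and was lost without control library 1, 2 or 4 (0.0914 to 0.164) or lisinopril library 1, 2, 4 or 5 (0.0578 to 0.0787).

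**Figure D3:**
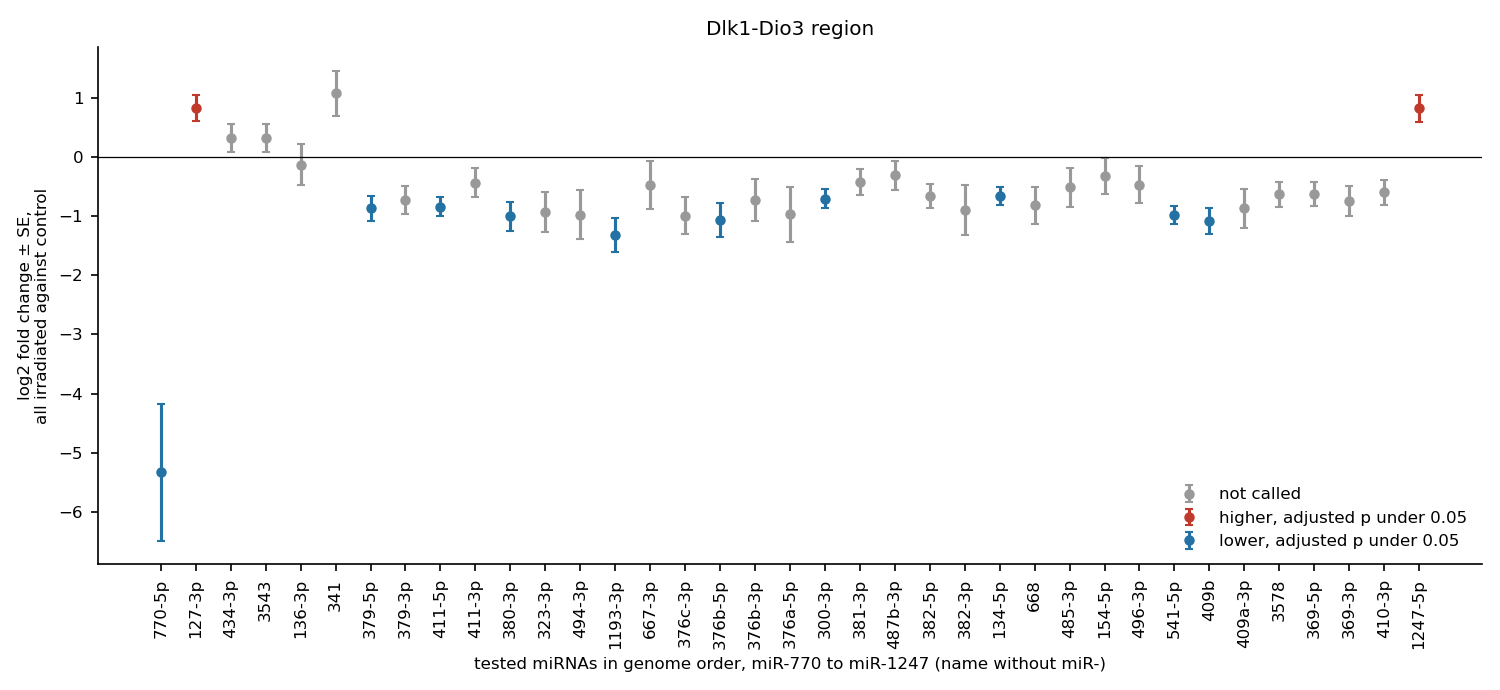
Log2 fold change ± SE of all irradiated kidneys against control for 37 tested miRNAs in genome order from miR-770 to miR-1247, with red for higher, blue for lower and grey for not called. All 30 entries from miR-379 to miR-410 lie below 0, while miR-127-3p before them and miR-1247-5p after them lie at 0.82. The value of miR-770-5p rests on control library 2.

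Outside these clusters, miR-802-5p fell in both irradiated groups. This miRNA, linked to glucose metabolism in liver, averaged 6.73 CPM. It is named after its values were seen, since it lies under the abundance set for naming. It was at 12.2, 14.9, 8.97 and 9.44 CPM in the controls and 3.10 to 6.92 CPM (median 4.19) after irradiation, with no overlap. It fell by 1.23 on the log2 scale (SE 0.199, adjusted p = 0.00183), by 1.14 without drug (adjusted p = 0.0216) and by 1.30 with lisinopril (adjusted p = 0.00226). The other arm of its hairpin, miR-802-3p, went from 7.05 to 3.67 CPM with no overlap and was not called (-0.81, adjusted p = 0.0686).

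miR-146a-5p, a feedback regulator of NF-kB signalling common in leukocytes, was at 1400, 1240, 804 and 1260 CPM in the controls. After irradiation its lowest value was 327, its median 673 and its highest 923 CPM. Control library 3 lay within the irradiated range, and the fall was 0.77 on the log2 scale (SE 0.208, adjusted p = 0.0381). Its call was kept in 12 of 23 alternatives. Left out singly, control libraries 1, 2 and 4 gave an adjusted p from 0.0914 to 0.135, and irradiated libraries 1 and 2 and lisinopril libraries 2 and 3 from 0.0518 to 0.063. miR-146b-5p, the only other tested miRNA with its seed, was at -0.42 (adjusted p = 0.239). Of 12 leukocyte miRNAs, 1 was lower with edgeR and 3 with DESeq2, 0 were higher with either, 9 were negative and the median was -0.41. Over all 419 tested, 24 were called by edgeR (5.73%), 43.7% were negative and the median was 0.05. An unadjusted p under 0.05 was found for 3 of the 12 and for 94 of all 419. The leukocyte median became -0.23 without control library 1 and ran from -0.52 to -0.23 over the 23 alternatives. Of these alternatives 13 called at least 1 member. Values that did not pass were those of miR-155-5p and of the neutrophil miRNA miR-223-3p (47.2 to 34.2 CPM, -0.46, adjusted p = 0.0573), which passed in 3 and 5 alternatives. The 6 leukocyte markers, all detected, summed to 1820 to 2270 CPM in controls and 1290 to 1920 CPM in irradiated kidneys. That sum includes miR-146a-5p itself, so the 2 falls are not independent. Of the 6 markers 5 had a negative log2 fold change, and miR-150-5p went the other way. The part of leukocyte number in the fall of miR-146a-5p was not tested.

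For 3 further lower calls the size rested on control library 2. miR-770-5p was at 4.64, 244, 2.70 and 3.07 CPM in the controls and 0.097 to 7.66 CPM (median 0.496) after irradiation. Its log2 fold change of -5.33 (SE 1.15, adjusted p = 0.012) became -1.33 without control library 2 (adjusted p = 0.401). miR-3473 was at 20.1, 299, 13.3 and 13.8 CPM in the controls and 5.12 to 15 CPM after irradiation. Its change of -2.96 (adjusted p = 0.012) became -0.61 without that library (adjusted p = 0.289). miR-499-5p, a product of a cardiac and slow muscle myosin gene, was at 273, 506, 250 and 231 CPM in the controls and 146 to 238 CPM after irradiation. Its change of -0.76 (adjusted p = 0.02) became -0.45 (adjusted p = 0.11). It was the only call among 13 muscle, adrenal and neural miRNAs (median -0.22, and -0.04 under library totals). Over all 419 tested, 24 were called (5.73%). An unadjusted p under 0.05 was found for 4 of the 13 and for 94 of all 419. The other arm, miR-499-3p, was at -0.39 (adjusted p = 0.157). The 3 detected muscle markers summed to 261 to 540 CPM in controls and 185 to 267 CPM after irradiation. Most of that sum was miR-499-5p itself, so it adds little to the call. Of the 3 markers 2 were negative, and miR-133a-3p was at 0.03. miR-206-3p, the liver marker miR-122-5p and the neural marker miR-124-3p were not analysed here, and the part of muscle RNA was not tested.

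**Figure D4:**
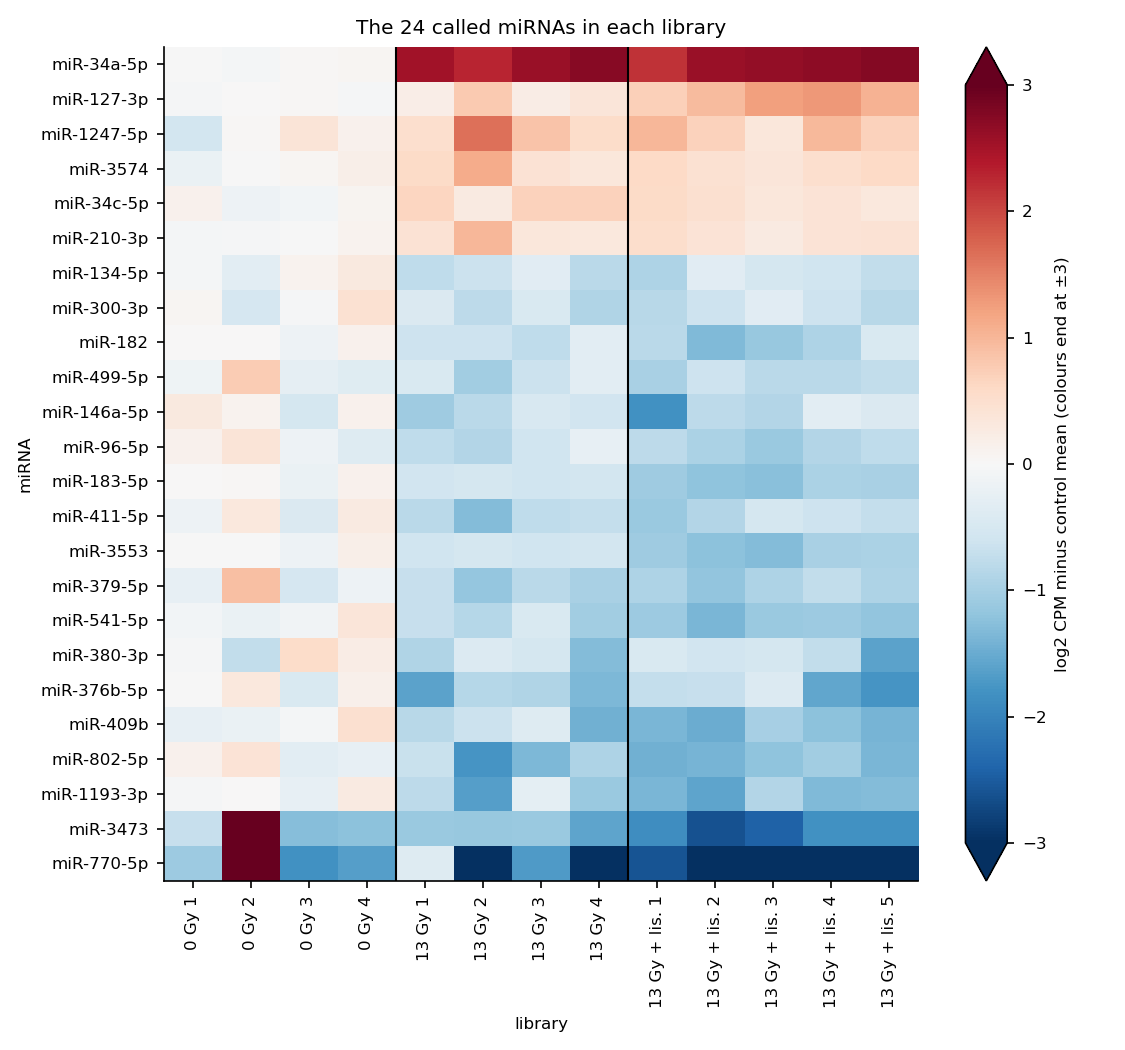
Log2 CPM of the 24 called miRNAs in each of the 13 libraries, as the difference from the control mean, with red above and blue below and colours ending at ±3. miR-34a-5p is uniformly red in all 9 irradiated libraries, whereas for miR-770-5p and miR-3473 control library 2 stands apart from the other controls.

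The hairpin partners of the called miRNAs gave a further look at the direction. For 9 called miRNAs the other arm was also tested, and in all 9 it had the same sign, although none of them was called. Both arms come from the same transcript, so the agreement does not add an independent gene. The median GC content was 61.4% in the 6 higher miRNAs and 45.5% in 17 of the 18 lower ones, against 46.7% in the 376 tested miRNAs with a sequence. The 6 include miR-210-3p and miR-3574, reverse complements from a single locus and so equal in GC content. The lower ones include the overlapping miR-183-5p and miR-3553, so the values within a set are not independent. Whether GC content had a part in the higher calls was not tested.

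Families that define kidney epithelium or accompany fibrosis held no member called in this fit. Unadjusted p under 0.05 were found for 3 of 18 kidney-enriched, 3 of 21 fibrosis-linked, 1 of 6 miR-29, 1 of 11 miR-30 and 0 of 8 miR-200 family members. Over all miRNAs tested that held for 94 of 419. DESeq2 called 1 kidney-enriched miRNA lower and 1 fibrosis-linked miRNA higher. Over the 23 alternatives 7 called a fibrosis-linked miRNA, 1 a kidney-enriched one and 0 a member of the miR-29, miR-30 or miR-200 family. List medians here moved with library totals, and their range over the alternatives follows each. Of 18 kidney-enriched miRNAs 10 were positive and 8 negative (median 0.05, range -0.04 to 0.18), with miR-10a-3p at -0.32 (adjusted p = 0.0819) and miR-196c-3p at 0.67 (adjusted p = 0.084). Of 21 fibrosis-linked miRNAs 12 were positive (median 0.09, range 0.02 to 0.24). Among these the fibroblast miRNA miR-214-3p went from 49.4 to 80.4 CPM with no overlap (0.70, adjusted p = 0.0557). It passed in 7 of 23 alternatives, among them equal group weights (adjusted p = 0.0456), and miR-132-3p was at 0.41 (adjusted p = 0.157). The antifibrotic miR-29 family (6 tested, median -0.02, range -0.12 to 0.12) was split, with miR-29c-3p at -0.25 (adjusted p = 0.197) and miR-29c-5p at 0.35 (adjusted p = 0.247). In the miR-30 family, abundant in podocytes and tubules, 8 of 11 were positive (median 0.09, range 0.06 to 0.25), with miR-30e-5p at -0.36 (adjusted p = 0.0997) and miR-30a-3p at 0.31 (adjusted p = 0.229). The epithelial miR-200 family (8 tested) had a median of -0.01 (range -0.04 to 0.15), with miR-200b-3p at -0.21 (adjusted p = 0.223) and miR-429 at -0.13 (adjusted p = 0.456).

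Families linked to growth held no call in this fit either. Unadjusted p under 0.05 were found for 4 of 18 let-7, 2 of 8 miR-322 cluster, 5 of 19 miR-17-92, 0 of 10 miR-15/16 and 0 of 9 miR-181 members. Over all miRNAs tested that held for 94 of 419. DESeq2 called 1 of the miR-322 cluster higher, and 1 higher and 2 lower in the miR-17-92 clusters. Of the 23 alternatives, DESeq2 included, 9 called a miR-17-92 miRNA, 2 a miR-322 cluster miRNA, 1 a let-7 miRNA (without irradiated library 2) and 0 a miR-15/16 or miR-181 miRNA. Without control library 3 edgeR called 1 higher and 2 lower in the miR-17-92 clusters. In the let-7 family, which restrains proliferation, 15 of 18 were positive (median 0.16). All 18 were positive under library totals (median 0.30) and 12 without control library 3 (median 0.27). Among them were let-7i-3p (0.54, adjusted p = 0.084) and let-7d-5p (0.32, adjusted p = 0.151). In the miR-322 cluster, which targets cell cycle genes, 6 of 8 were positive (median 0.22, range 0.16 to 0.35), with miR-542-5p first (0.58, adjusted p = 0.0724) and miR-503-3p (0.40, adjusted p = 0.084). The miR-17-92 clusters had 14 of 19 positive (median 0.07, range 0.05 to 0.21), with miR-92b-3p at 0.63 (adjusted p = 0.0504), which passed in 8 alternatives. miR-19b-3p was at -0.89 (adjusted p = 0.0557) and passed in 4 alternatives. It too rested on control library 2, at 698 CPM where the other controls held 202 to 347 CPM, and was at -0.38 without it (adjusted p = 0.335). The miR-15/16 family was even, 5 of 10 positive (range of the median -0.04 to 0.12), with miR-497-5p at 0.34 (adjusted p = 0.35) and miR-16-5p at -0.19 (adjusted p = 0.471). In the miR-181 family 6 of 9 were positive (median 0.07, range 0.03 to 0.23), with miR-181a-2-3p at 0.23 (adjusted p = 0.464) and miR-181a-1-3p at 0.15 (adjusted p = 0.48).

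Lists for other cell types gave 0 calls in this fit among 5 erythroid, 11 endothelial and 7 smooth muscle and fibroblast miRNAs. Each list had 1 unadjusted p under 0.05, where all miRNAs tested had 94 of 419. DESeq2 called 1 smooth muscle and fibroblast miRNA higher. Of the 23 alternatives 7 called that list's miR-214-3p and 0 called an erythroid or endothelial miRNA. All 5 erythroid miRNAs were positive (median 0.51), but with limma-voom 3 were negative (median -0.66). Without a single library the median ran from 0.26 (irradiated library 1) to 0.87 (control library 3). In this list miR-363-3p was at 0.30 (adjusted p = 0.178) and miR-486 at 0.46 (adjusted p = 0.567). Their 4 markers summed to 918 to 2100 CPM in controls and 674 to 4230 CPM after irradiation. Endothelial miRNAs had a median of 0.01 (range -0.09 to 0.14), with miR-126a-3p at -0.20 (adjusted p = 0.213) and miR-221-3p at 0.18 (adjusted p = 0.456), and their 2 markers summed to 11600 to 14600 CPM and 8540 to 15600 CPM. Smooth muscle and fibroblast miRNAs had 6 of 7 positive (median 0.14, range 0.09 to 0.29), with miR-199a-5p at 0.19 (adjusted p = 0.393), and their 5 markers summed to 28700 to 40800 CPM and 27800 to 55900 CPM. The 3 detected adrenal and neural markers summed to 1850 to 2220 CPM and 1680 to 2420 CPM.

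Pooling assumes that the irradiated groups can share a mean, so their difference was estimated for each called miRNA. By edgeR no miRNA was called for the drug among irradiated kidneys (0% of 419), and 63 were at an unadjusted p under 0.05. For 18 of the 24 called miRNAs the 95% interval of the drug difference contained 0, and for 21 of 24 it lay within 1 log2 unit on either side. The 6 whose interval did not contain 0 were miR-127-3p, miR-183-5p, miR-3553, miR-541-5p, miR-409b and miR-182. In these 6 the lisinopril group lay farther from control than the group without drug. For miR-541-5p the difference was -0.42 (95% interval -0.74 to -0.10, adjusted p = 0.232), and for miR-182 it was -0.33 (adjusted p = 0.325). A test that misses its threshold does not show that the groups were alike.

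Set against control, each irradiated group gave its own values, and both comparisons used the same 4 control libraries. Of the 24 miRNAs called in the pool, 7 passed in the group without drug and 18 in the lisinopril group, 6 of them in both. The 12 that passed with lisinopril but not without drug cannot be assigned to radiation alone. A further 5 passed only when the groups were pooled: miR-1247-5p, miR-3574, miR-210-3p, miR-146a-5p and miR-376b-5p. The lisinopril group held 5 libraries against 4, and a fit that gave each group equal weight called 32, all 24 and a further 8. The 8 included miR-34b-3p, miR-214-3p, miR-223-3p and miR-183-3p.

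**Figure D5:**
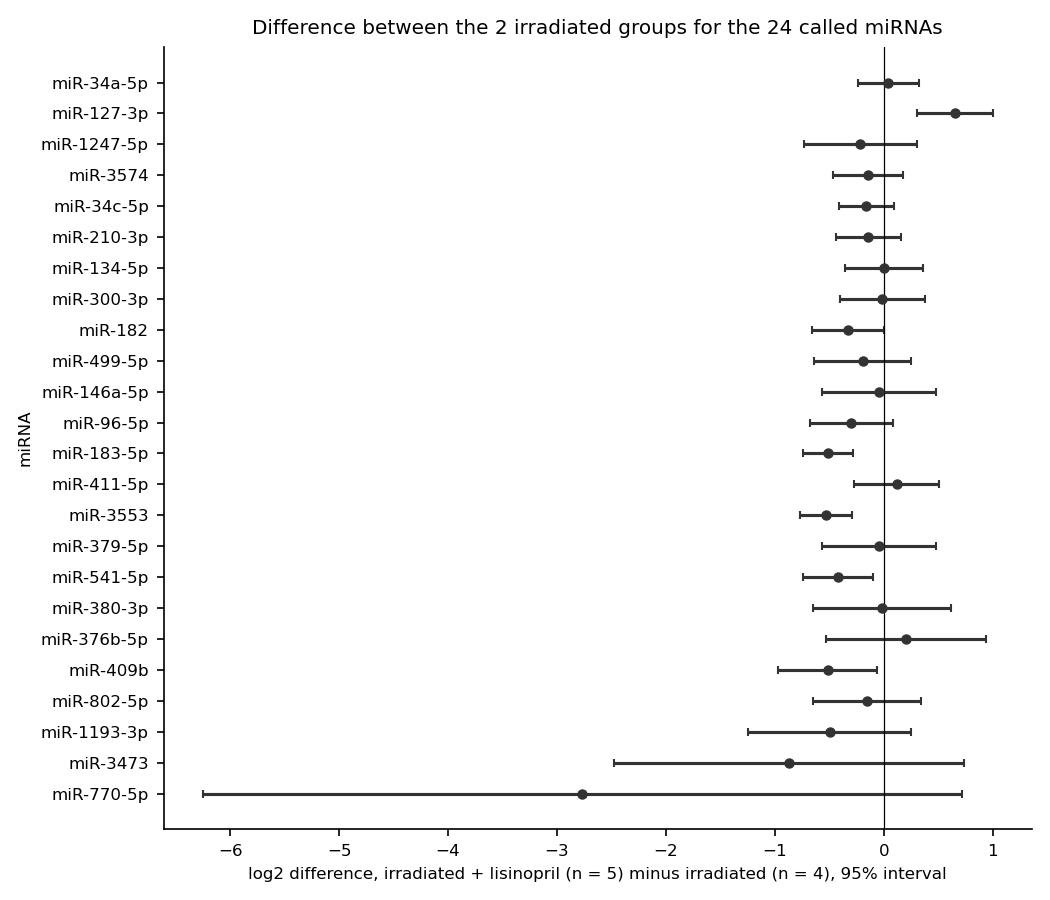
Log2 difference between irradiated kidneys with (n = 5) and without (n = 4) lisinopril for each of the 24 called miRNAs, as a point with its 95% interval from edgeR. miR-34a-5p lies at 0.04, while the intervals of miR-127-3p, miR-183-5p, miR-3553, miR-541-5p and miR-409b exclude 0, as does that of miR-182 by less than can be seen.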

How the data were processed

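Small RNA libraries (TruSeq kit, kidney total RNA) came from 13 rats, grouped by the labelled group names. The submitters' processing notes name Trim Galore 0.2.5, Bowtie 1.1.1 and the rn4 genome build. The counting method, its use of strand and its treatment of multiple hits are not given in the sources used here. Deposited were the authors' raw counts, whole numbers for 1121 features, of which the 460 unique mature rat miRNAs were used.

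edgeR 4.0.16 (R 4.3.3) was run on these counts with TMM scaling (factors 0.787 to 1.19) and filterByExpr, which kept 419 and removed 41. A mean was fitted to each pooled set (biological coefficient of variation 25.3%), and Benjamini-Hochberg adjustment ran over all 419. A fit with 3 group means gave the separate groups and the drug difference. Log2 CPM used a prior count of 2. Floors of 3 counts cover counting error only, as no source names molecular identifiers. Permutation tests were exact and two-sided. Opposite-strand partners were found from RefSeq positions (an overlap of at least 15 bases) and checked by sequence.

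Alternatives were RLE factors, library totals, sizes without the top miRNA, other filters, equal group weights, DESeq2 1.42.0, limma-voom (limma 3.58.1), addition of other-species miRNAs, leaving out each library and, added after the data were seen, 1 entry per overlapping locus. The miRNAs named are, among those called and averaging 10 CPM or more, the 10 largest changes in each direction and the 5 most abundant, then the miR-34/449 family and, per list, the 2 lowest p (4 at most in a list with over 4 calls). Others are named as partners of these or as stated. The comparison, members and lists were chosen with earlier results of these data known.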

Additional observations from a re-analysis of the deposited data

Results flagged for a closer look

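Among 48 groups of values tested for a library that stands apart, 8 were found. A chance rate of about 1 in 20 would hold only for independent groups of normally distributed values. Here the same libraries recur, some entries overlap and the distribution of CPM was not tested, so the 8 cannot be judged against it. Irradiated library 2 stood above the other 8 irradiated kidneys in miR-1247-5p (151 CPM, the others 60.1 to 95), in miR-210-3p (355 CPM, the others 213 to 255) and in its antisense partner miR-3574 (252 CPM, the others 148 to 177). Control library 2 stood above the other 3 controls in miR-770-5p (244 CPM, the others 2.70 to 4.64), miR-3473 (299 CPM, the others 13.3 to 20.1), miR-499-5p (506 CPM, the others 231 to 273) and miR-379-5p (10.6 CPM, the others 3.86 to 4.95). Irradiated library 1 stood apart in miR-770-5p, at 7.66 CPM against 0.097 to 2.93 CPM.

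In data that the comparison did not use, the entry named for human and cow miR-4286 was higher after irradiation, with a log2 fold change of 1.12 (edgeR, adjusted p = 0.0284 over rat and other-species miRNAs). It was at 2.12, 4.07, 5.36 and 3.96 CPM in the controls and from 5.50 to 13.4 CPM in the 9 irradiated kidneys, with no overlap. Without control library 2 its adjusted p was 0.0829. Of 153 other-species entries tested, 22 were lower, and all 22 were highest in control library 2. Without that library 2 were lower and 0 higher.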

How the results depend on the processing

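Over 23 alternatives no called miRNA changed direction, and miR-34a-5p, miR-411-5p and miR-802-5p passed in every alternative that tested them. Another 5 (miR-541-5p, miR-409b, miR-183-5p, miR-3553 and miR-182) were lost only under library totals, so 8 of the 24 passed with any single library left out. The 6 higher calls became 2 under library totals, 11 with DESeq2 and 3 with limma-voom, and 1 (without control library 2) to 11 (without irradiated library 2) when single libraries were left out. They numbered 2 without control library 1, 3 without control library 4 or lisinopril library 2 or 5, and 10 without irradiated library 4. The 18 lower calls became 4 under library totals, and 13 (without control library 2) to 23 (without irradiated library 3). Library totals moved the median of all miRNAs from 0.05 to 0.18 and lost 18 calls, while leaving out control libraries 2, 4, 1 and 3 lost 11, 10, 7 and 4. The cause of these losses was not tested. The share of calls that were higher was 25% as reported, 7.14% without control library 2, 11.1% without control library 1, 13.6% without lisinopril library 5 and 39.3% without irradiated library 2. miR-34c-5p was lost under library totals (adjusted p = 0.0508) and without control library 2 (0.0745) or 3 (0.0548). At 3.19 CPM for 3 counts, control library 2 limits what can be seen of low miRNAs. No paired analysis was made, because the groups were separate rats and the labels give no batch, litter or pairing.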
